A study of Mus musculus with 8 samples.

Results

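The inner nuclear membrane (INM) genes described here are Lbr, Emd, Lemd2, Lemd3, Tmpo, Tmem43, Tor1aip1, Ctdnep1, Ppapdc3 and Wfs1. They were chosen by gene name as a list of non-lamin proteins of this membrane, and all 10 were found among the 15433 genes of the table. The INM is the face of the nuclear envelope (NE) that touches chromatin. Its proteins tie the lamina and peripheral heterochromatin to the membrane, several of them through a LEM domain that binds the chromatin protein BAF, and others act in the space between the membranes or on lipid synthesis. Muscle is a tissue in which defects of this membrane are known to cause disease: loss of emerin gives Emery-Dreifuss muscular dystrophy in humans. Wolframin, the product of Wfs1, is best known as a resident of the endoplasmic reticulum (ER), whose membrane is continuous with the NE, so its place on the list rests on the list and not on location data from these mice.

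RNA-Seq was performed on gastrocnemius (GST) muscle of 6-month-old female mice, with 4 WT libraries and 4 STIM1+/D84G libraries and 1 library per mouse. STIM1+/D84G mice carry a single copy of the D84G mutation in the EF hand of STIM1, a Ca2+ sensor of the sarcoplasmic reticulum and the NE. The WT controls were C57BL/6 mice matched by age and sex. The comparison asks which NE transcripts differ between the genotypes.

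Values are normalized counts, which are reads per gene divided by a single size factor per library. WT libraries held 28698738 to 33661535 reads in listed genes and mutant libraries 27481177 to 35018732, and each of the 10 genes had between 500 and 7023 reads in every library. Stim1 itself was at 7293 ± 167 in WT muscle, against 5413 ± 264 with the mutation (SD, n = 4 each). With these size factors the transcript of the mutated gene fell (log2 fold change −0.43 ± 0.04, SE, limma adjusted p = 1.39e-05). Scaling libraries to their totals, examined below, raises each gene by nearly 0.35 on the log2 scale, so the size of this fall depends on the scaling. For STIM1 protein, the paper reports no change in GST muscle of these mice on Western blots. Markers of muscle fibers defined the tissue in both genotypes, but their sum was 6904110 to 7454500 in WT against 3789460 to 4437580 in mutant muscle, and all 6 of these markers fell. All 7 macrophage markers rose (sum 1631 to 2081 in WT, 4957 to 8486 in STIM1+/D84G) and so did all 5 fibro-adipogenic markers (17222 to 25562 in WT, 29995 to 35032 in STIM1+/D84G). The T and B cell list, with 2 of 5 markers listed, summed to at most 2.17 in a WT library, with 0 in the lowest, against 9.61 to 21.2 in mutant muscle. These shifts stand beside every result that follows, and their part in the results was not tested. The fiber marker list includes genes of fast fibers, and the paper reports a shift from type IIB to type IIX fibers in these mice. In RNA from whole muscle, a change of fiber type, fewer cells of a type and less RNA per cell cannot be told apart.

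Of the 10 INM genes, Tmem43 and Wfs1 rose, 6 fell (Ctdnep1, Tor1aip1, Ppapdc3, Lemd3, Tmpo and, with a sign that turned when libraries were scaled to their totals, Lbr), and Emd and Lemd2 did not pass the test. A gene passed at an adjusted p under 0.05 in limma, fitted to log2-transformed normalized counts after addition of 0.1 and adjusted by Benjamini-Hochberg over all 15433 genes. By the same rule, 25.0% of all genes rose and 24.4% fell, so changes were common in this muscle and 8 calls of 10 must be read against that background. In 8 of the 10 genes, the same 8 that passed, the 4 STIM1+/D84G values lay entirely above or entirely below the 4 WT values. They did so for 46.0% of all genes, called or not. Passing and separation rest on the same values, so separation was no separate check. For these 8 genes the exact two-sided permutation p was 0.029, the smallest that 70 assignments of 4 against 4 allow. The median log2 fold change of the 10 genes was −0.27, beside 0.01 over all genes.

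**Figure D1:**
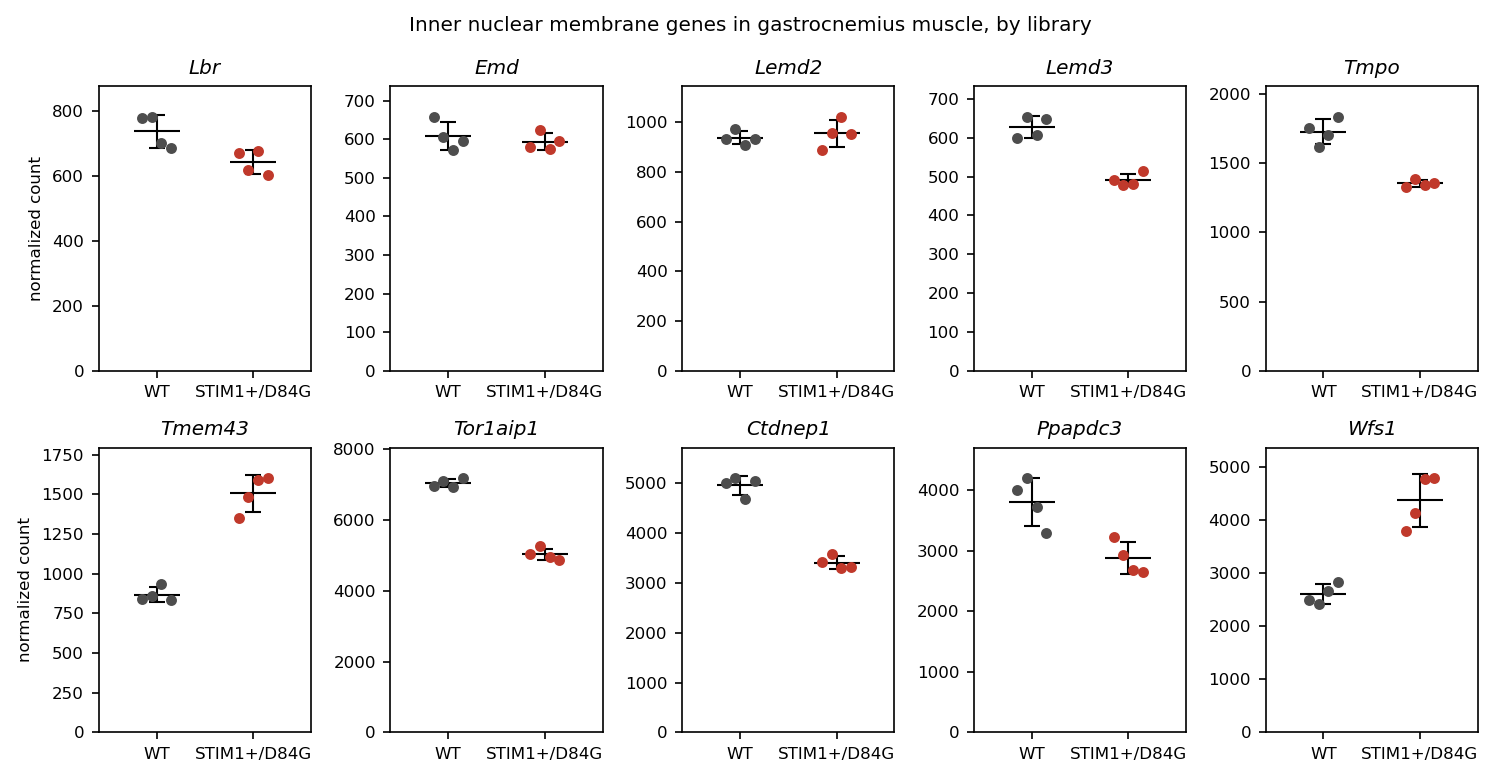
Normalized counts of the 10 INM genes in each library (points), with the mean (long bar) and SD (short bars) of 4 WT and 4 STIM1+/D84G muscles on linear axes that start at 0. Tmem43 and Wfs1 sit higher in all 4 STIM1+/D84G libraries, Emd and Lemd2 overlap, and the other 6 sit lower, with Lbr nearest to overlap and turning sign under scaling to the total.

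Tmem43 (chr6:91473703-91488463, plus strand, mm10) encodes LUMA, a membrane protein that binds emerin and lamins and is mutated in a human arrhythmogenic cardiomyopathy. Its normalized counts were 838, 861, 935 and 833 in WT replicates 1 to 4 and 1351, 1483, 1591 and 1603 in STIM1+/D84G replicates 1 to 4. The lowest STIM1+/D84G muscle was thus well above the highest WT muscle. The mean went from 867 ± 46.9 to 1507 ± 117 (SD, n = 4 each), a 1.74-fold level and a log2 fold change of 0.80 ± 0.06 (SE, limma adjusted p = 2.84e-06, 95% interval 0.66 to 0.93).

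Wfs1 (chr5:36966104-36989205, minus strand) encodes wolframin, which acts in ER Ca2+ balance and in restraint of the ER stress response and is mutated in Wolfram syndrome. It counted 2501, 2417, 2671 and 2837 in the WT libraries and 3791, 4131, 4783 and 4793 in the STIM1+/D84G libraries. All 4 mutant values exceeded all WT values, and they were also more spread, with a coefficient of variation of 11.4% beside 7.16% in WT. Its mean rose from 2606 ± 187 to 4374 ± 497 (SD, n = 4 each), 1.67-fold, with a log2 fold change of 0.74 ± 0.08 (SE, limma adjusted p = 2.29e-05, 95% interval 0.57 to 0.92).

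Ctdnep1 (chr11:69981156-69990601, plus strand) encodes a phosphatase of the NE and ER that dephosphorylates lipin and so acts on membrane lipid synthesis. WT libraries held 5001, 5108, 4690 and 5050 normalized counts, and STIM1+/D84G libraries held 3425, 3592, 3292 and 3329. Both groups were tight and far apart. The mean was 31.3% lower in STIM1+/D84G muscle (4962 ± 187 against 3409 ± 134, SD, n = 4 each), with a log2 fold change of −0.54 ± 0.04 (SE, limma adjusted p = 2.95e-06). Cnep1r1, the regulatory subunit of this phosphatase, went from 1096 ± 77.5 to 952 ± 33.7 (SD, n = 4 each, log2 fold change −0.20 ± 0.06, SE, limma adjusted p = 0.0110). The ratio of Ctdnep1 to Cnep1r1 within a library was 4.54 ± 0.208 for WT, against 3.58 ± 0.178 for STIM1+/D84G (SD, n = 4 each), and the ranges of 4.23 to 4.65 and 3.43 to 3.82 did not overlap.

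Tor1aip1 (chr1:156004599-156036480, minus strand) encodes LAP1, which binds lamins and activates the ATPase torsinA from the space between the membranes, and whose loss in humans causes a muscular dystrophy. It counted 6974, 7104, 6921 and 7187 in WT and 5032, 5257, 4946 and 4881 in STIM1+/D84G libraries. No library approached the other group. The mean fell by 28.6%, from 7046 ± 121 to 5029 ± 164 (SD, n = 4 each), and the log2 fold change was −0.49 ± 0.04 (SE, limma adjusted p = 2.22e-06). Its neighbor Tor1aip2, which encodes the second torsin activator LULL1, counted 2383 ± 51.4 in WT against 2486 ± 80.1 in mutant muscle (SD, n = 4 each, log2 fold change 0.06 ± 0.04, SE, limma adjusted p = 0.210). The ratio of Tor1aip1 to Tor1aip2 was 2.96 ± 0.0498 for WT, against 2.02 ± 0.0674 for STIM1+/D84G (SD, n = 4 each), without overlap. The pair lies on opposite strands and shares 699 exon bases, 12.9% of the exon bases of Tor1aip1, so reads there can be assigned to either gene unless strand was used in counting, which is not given in the sources used here.

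The start regions of these 4 genes are shown because they kept their calls under every alternative tried and moved in opposite directions. Each line gives 250 bases before and 50 after a RefSeq start (GRCm38.p6), 5′ to 3′ on the strand of the gene, with capitals for the CCAAT box, named for its letters, and for the GC box, GGGCGG, on either strand. The windows are chr6:91473457-91473756 (plus strand) for Tmem43, chr5:36988933-36989232 (minus strand) for Wfs1, chr11:69980918-69981217 (plus strand) for Ctdnep1 and chr1:156036431-156036730 (minus strand) for Tor1aip1.
Tmem43: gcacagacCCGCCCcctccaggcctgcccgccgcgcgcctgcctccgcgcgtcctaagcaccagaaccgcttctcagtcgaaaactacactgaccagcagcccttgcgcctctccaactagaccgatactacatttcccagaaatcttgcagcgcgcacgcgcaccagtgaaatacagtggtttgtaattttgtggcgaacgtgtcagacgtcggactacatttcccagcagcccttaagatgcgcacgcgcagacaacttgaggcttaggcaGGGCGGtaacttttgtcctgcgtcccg
Wfs1: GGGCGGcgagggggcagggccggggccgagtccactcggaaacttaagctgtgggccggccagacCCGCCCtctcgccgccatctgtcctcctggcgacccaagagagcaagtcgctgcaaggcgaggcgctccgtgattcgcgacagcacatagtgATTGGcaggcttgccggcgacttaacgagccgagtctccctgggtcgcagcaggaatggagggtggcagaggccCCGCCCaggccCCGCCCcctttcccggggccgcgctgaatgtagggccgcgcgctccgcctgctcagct
Ctdnep1: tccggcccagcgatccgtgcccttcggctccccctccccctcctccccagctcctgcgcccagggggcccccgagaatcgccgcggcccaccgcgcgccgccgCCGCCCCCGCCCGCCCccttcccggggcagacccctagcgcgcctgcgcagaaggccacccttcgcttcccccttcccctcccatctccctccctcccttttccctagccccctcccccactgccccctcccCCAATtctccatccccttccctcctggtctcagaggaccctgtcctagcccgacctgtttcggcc
Tor1aip1: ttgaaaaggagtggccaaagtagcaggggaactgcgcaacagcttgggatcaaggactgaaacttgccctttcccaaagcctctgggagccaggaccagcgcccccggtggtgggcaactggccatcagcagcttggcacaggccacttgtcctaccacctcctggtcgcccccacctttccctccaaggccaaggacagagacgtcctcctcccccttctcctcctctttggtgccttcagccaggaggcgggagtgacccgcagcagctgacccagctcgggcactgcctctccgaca
In these windows Tmem43 held 2 GC boxes and no CCAAT box, Wfs1 held 4 GC boxes and 1 CCAAT box, Ctdnep1 held 3 GC boxes, with overlapping matches counted separately, and 1 CCAAT box, and Tor1aip1 held neither. The table of promoters covered 9 of the 10 INM genes with 11 windows, and Lemd2 was not matched. A CCAAT box was found in 7 of the 11 windows, 1 for each of 7 genes, and a GC box likewise in 7 of the 11. Of all 32851 promoters of the same length, 37.4% and 35.7% hold them. Searches on both strands were also made for CCACG (32.8% of all promoters, present in 1 Tmpo window), for CANNTG, the E-box (72.3% of all promoters, in the printed windows 1 match in Wfs1 and 3 in Tor1aip1), and for the full ER stress element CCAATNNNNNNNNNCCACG (0.119% of all promoters, in no window of these genes). The GC box was thus present both before genes that rose and before a gene that fell, and a match is a description of letters and not of a bound site.

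Ppapdc3 (chr2:32095528-32110820, plus strand, also called Plpp7 or NET39) encodes an NE protein enriched in muscle, known in mouse myoblasts as a brake on differentiation and in mice for its part in the integrity of muscle nuclei. It counted 3990, 4195, 3712 and 3283 in WT and 3225, 2930, 2679 and 2652 in STIM1+/D84G libraries. The groups were separated only narrowly, with WT replicate 4 just above STIM1+/D84G replicate 1. The mean was 24.3% lower (3795 ± 395 against 2872 ± 267, SD, n = 4 each, log2 fold change −0.40 ± 0.08, SE, limma adjusted p = 0.00192). A number in the column names divides the libraries into WT replicates 1 and 2 with STIM1+/D84G replicate 1 and the other 5, and what it stands for is not stated. The log2 ratio of the Ppapdc3 means was −0.34 within each of these sets, although the first holds a single STIM1+/D84G library. The other genes that passed also kept their direction within both sets, as for Tmem43 (0.67 and 0.82), Wfs1 (0.62 and 0.73), Ctdnep1 (−0.56 and −0.52) and Lbr (−0.22 and −0.13).

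Lbr (chr1:181815335-181843046, minus strand) encodes the lamin B receptor, which holds peripheral heterochromatin and B-type lamins at the membrane and also carries a sterol reductase. Its values were 780, 783, 700 and 687 in WT and 670, 619, 679 and 604 in STIM1+/D84G libraries. The lowest WT and highest STIM1+/D84G muscles were nearly equal. The mean of 738 ± 51.2 went to 643 ± 37.0 (SD, n = 4 each), 12.9% lower, with a log2 fold change of −0.20 ± 0.06 (SE, limma adjusted p = 0.0219). This call was lost when WT replicate 1 (adjusted p = 0.0586), WT replicate 2 (0.0638), STIM1+/D84G replicate 2 (0.0601) or STIM1+/D84G replicate 4 (0.0674) was left out.

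The 4 LEM-domain genes went different ways. Tmpo (chr10:91147571-91181315, minus strand) encodes the LAP2 proteins, some of them in the membrane and others in the nucleoplasm, which the table does not separate. It counted 1753, 1619, 1701 and 1836 in WT and 1330, 1383, 1342 and 1359 in STIM1+/D84G libraries. The mutant values were close together and below every WT value. Its mean was 21.6% lower (1727 ± 91.1 against 1353 ± 23.1, SD, n = 4 each, log2 fold change −0.35 ± 0.04, SE, limma adjusted p = 8.17e-05). Lemd3 (chr10:120923413-120979332, minus strand) encodes MAN1, which binds receptor SMADs and limits TGF-β and BMP signaling. It counted 600, 654, 607 and 649 in WT and 491, 477, 482 and 514 in STIM1+/D84G libraries. These groups did not overlap either, and the mean was 21.8% lower (628 ± 27.9 against 491 ± 16.2, SD, n = 4 each, log2 fold change −0.35 ± 0.05, SE, limma adjusted p = 0.000196).

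Emd (chrX:74254687-74261548, plus strand) encodes emerin. It counted 659, 605, 573 and 595 in WT and 579, 623, 574 and 596 in STIM1+/D84G libraries, so the groups overlapped almost fully. The means were 608 ± 36.6 and 593 ± 22.1 (SD, n = 4 each, log2 fold change −0.03 ± 0.06, SE, limma adjusted p = 0.641, exact permutation p = 0.600), and the 95% interval of the log2 fold change was −0.16 to 0.09. Lemd2 (chr17:27189600-27204469, minus strand) encodes a protein that recruits the ESCRT factor CHMP7 when the envelope is sealed after mitosis. Its counts were 934, 971, 910 and 933 in WT and 890, 958, 1023 and 952 in STIM1+/D84G libraries. The WT values fell inside the range of the mutant values. Means of 937 ± 25.5 and 956 ± 54.5 (SD, n = 4 each) gave a log2 fold change of 0.03 ± 0.05 (SE, limma adjusted p = 0.685, exact permutation p = 0.571, 95% interval −0.08 to 0.14).

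How far each change depends on the scaling of the libraries was examined next, because the 50 most abundant genes took 51.3% to 52.2% of the normalized counts of a WT library but 42.5% to 44.9% of those of a mutant library. When libraries were scaled to their totals, the middle of the log2 fold changes of all genes moved up by 0.35, and 61.4% of all genes were called higher and 4.93% lower. Under that scaling Tmem43 (log2 fold change 1.15) and Wfs1 (1.09) were still higher, Ctdnep1 (−0.19, limma adjusted p = 0.00067) and Tor1aip1 (−0.14, limma adjusted p = 0.0023) were still lower, and Emd (0.32) and Lemd2 (0.38) passed as higher. Tmpo (−0.00), Lemd3 (−0.01), Ppapdc3 (−0.05) and Lbr (0.15) did not pass. Total scaling adds nearly the same 0.35 to the log2 fold change of every gene, so the order of the 10 genes could not change. The calls of Tmem43, Wfs1, Ctdnep1 and Tor1aip1 held under all 20 alternatives tried, whereas each of the other 6 crossed the threshold under at least 1 of them. Of the 20, scaling by the median of ratios returned the reported values for all 10 genes, so it was no separate check.

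**Figure D2:**
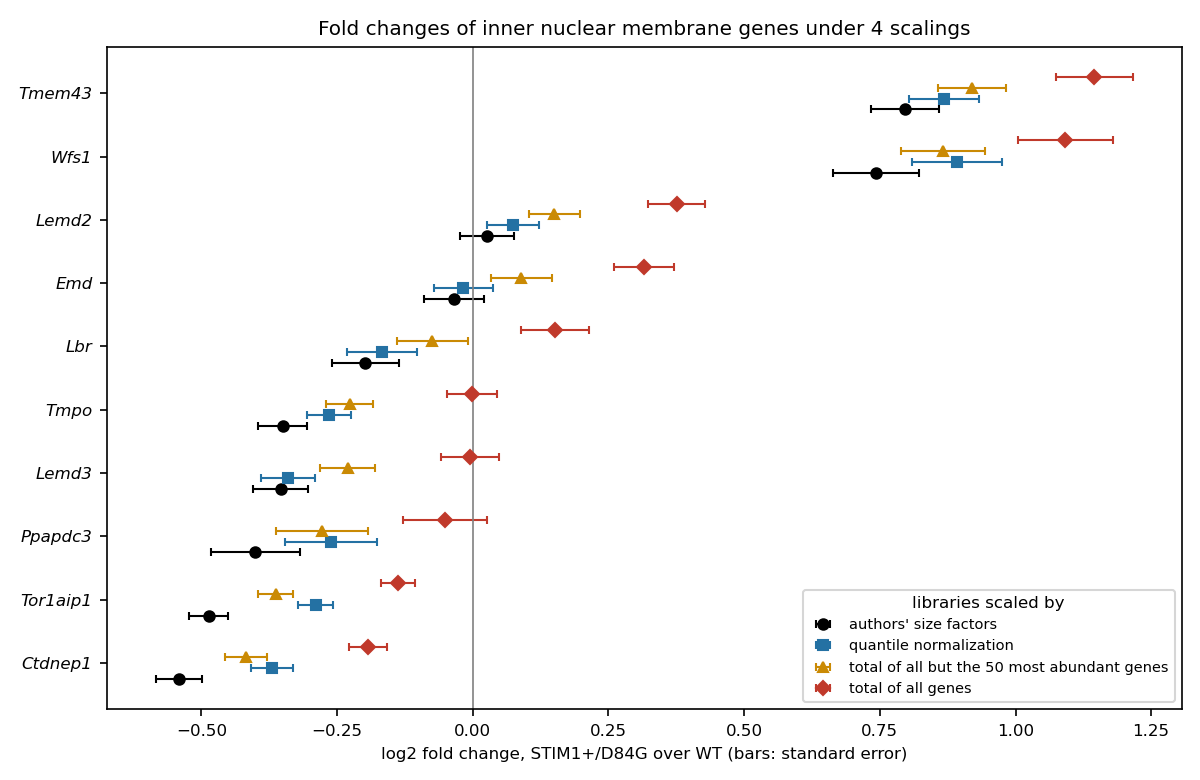
Log2 fold changes of the INM genes, STIM1+/D84G over WT, with libraries scaled by the size factors of the authors (circles), quantile normalization (squares), the total without the 50 most abundant genes (triangles) or the total (diamonds); bars are SE. Tmem43 and Wfs1 lie right of 0 and Ctdnep1 and Tor1aip1 left of 0 under all 4 scalings, while Emd and Lbr change sign.

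Shares within a library do not depend on that scaling. The 10 genes together counted 23418 to 24317 in WT and 20783 to 21453 in STIM1+/D84G libraries, and the share of each gene in this sum was compared, with counts not divided by length. The Wfs1 share went from 10.9% ± 0.889 to 20.6% ± 2.17 (SD, n = 4 each) and the Tmem43 share from 3.63% ± 0.244 to 7.10% ± 0.482 (SD, n = 4 each). Tor1aip1 went from 29.5% ± 0.467 to 23.7% ± 0.781 and Ctdnep1 from 20.7% ± 0.499 to 16.1% ± 0.650 (SD, n = 4 each). In all 4 of these shares the genotypes did not overlap. The shares of Tmpo (7.23% to 6.38%) and Lemd3 (2.62% to 2.31%) were lower and that of Lemd2 higher (3.92% to 4.50%) in every STIM1+/D84G library than in any WT library, and those of Ppapdc3, Lbr and Emd overlapped. Shares sum to a fixed total, so a higher share of some genes lowers the others.

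**Figure D3:**
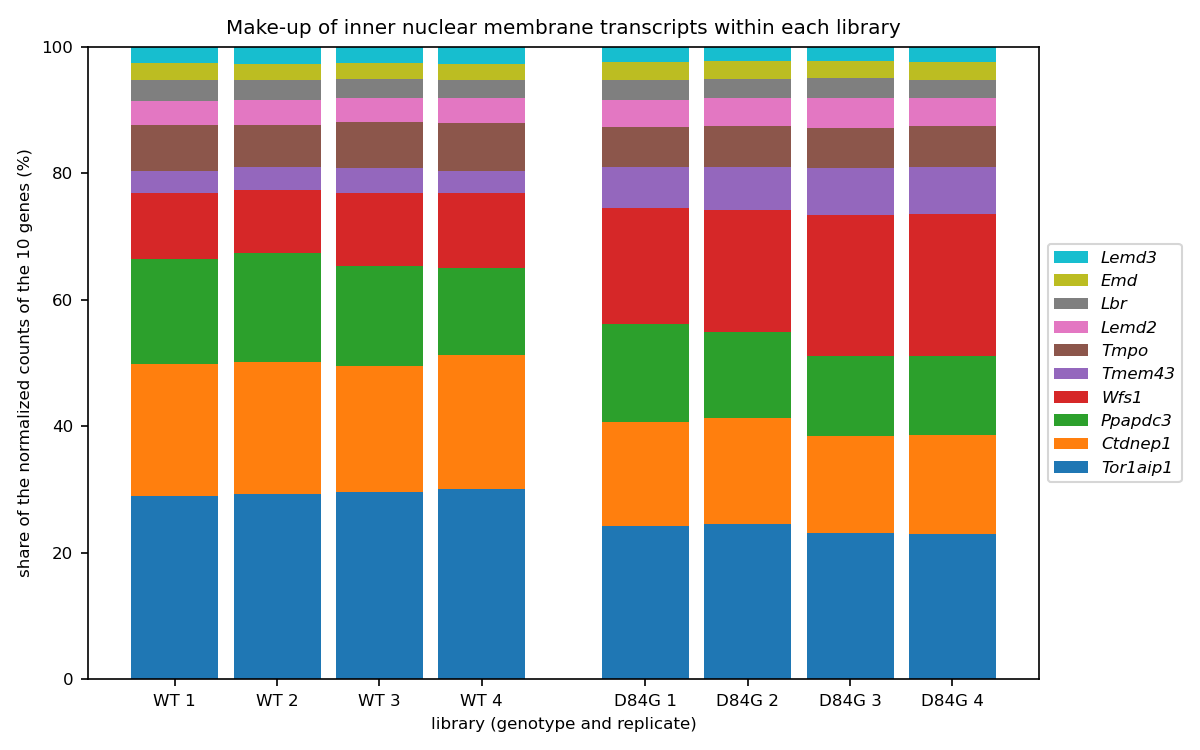
Share of each INM gene in the summed normalized counts of the 10 genes (percent, stacked to 100) for each of 4 WT and 4 STIM1+/D84G (D84G) libraries. The Wfs1 and Tmem43 blocks are wider and the Tor1aip1 and Ctdnep1 blocks narrower in all 4 STIM1+/D84G libraries.

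Further ratios were formed after these values were seen. Within the 4 LEM-domain genes, the Emd share went from a range of 14.8% to 16.7% in WT to 16.8% to 18.1% in STIM1+/D84G libraries, and the Lemd2 share was 23.3% to 25.2% in the first and 27.0% to 29.9% in the second. The Tmpo share was 42.0% to 45.8% for WT and 39.2% to 40.4% for STIM1+/D84G, and that of Lemd3 was 16.1% ± 0.732 and 14.5% ± 0.580 (SD, n = 4 each) without overlap, so these went the other way. The ratio of Wfs1 to Ppapdc3 was 0.576 to 0.864 for WT, against 1.18 to 1.81 for STIM1+/D84G, with counts not divided by length. The pair joins a gene called higher to a gene called lower, so a higher ratio followed from those calls. Per kb of exon, mean Ppapdc3 stood above mean Wfs1 in both genotypes (1826 against 688 in WT, 1382 against 1155 in STIM1+/D84G).

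Levels of different genes were compared per kilobase of exon (GENCODE vM21 gene models). The exons of all transcripts of a gene were joined, which gave 10998 bases for Tmpo. A gene with several unlike transcripts, such as Tmpo, can thus stand too low in this order. In WT muscle the order was Ctdnep1 (2274 normalized counts per kb), Ppapdc3 (1826), Tor1aip1 (1303), Wfs1 (688), Emd (241), Tmem43 (218), Lemd2 (192), Tmpo (157), Lbr (155) and Lemd3 (131). Emd and Tmem43 overlapped in their ranges over the 4 WT libraries, as did Tmpo and Lbr. In STIM1+/D84G muscle Ctdnep1 (1563, range 1509 to 1646) and Ppapdc3 (1382, range 1276 to 1552) overlapped, Wfs1 (1155) stood above Tor1aip1 (930), and Tmem43 (379) stood above Emd (236). Thus, on this measure, the membrane phosphatase and the muscle NE protein led in both genotypes, and the LEM-domain genes and Lbr were at the low end in both.

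The lamins and the LINC complex, which joins the INM to the cytoskeleton, were read beside the INM genes. Lmna, which encodes lamins A and C, rose from 2351 ± 105 to 4412 ± 195 (SD, n = 4 each, log2 fold change 0.91 ± 0.05, SE, limma adjusted p = 1.79e-07), a fold close in size to those of Tmem43 and Wfs1. Lmnb1 fell from 290 ± 42.6 to 218 ± 5.76 (SD, n = 4 each, log2 fold change −0.40 ± 0.10, SE, limma adjusted p = 0.00566), while Lmnb2 (0.12, limma adjusted p = 0.251) and the prelamin protease Zmpste24 (0.02, limma adjusted p = 0.802) did not pass. The WT values of Lmnb1 followed the number in the column names, with 337 and 316 in replicates 1 and 2 and 257 and 252 in replicates 3 and 4. Its log2 ratio of means was −0.58 in the set that holds STIM1+/D84G replicate 1 and −0.22 in the other. Scaling to the totals raises each gene by nearly 0.35, so the size of this fall also depends on the scaling. Of the LINC genes, the INM protein Sun2 fell from 5117 ± 232 to 3448 ± 130 (SD, n = 4 each, log2 fold change −0.57 ± 0.04, SE, limma adjusted p = 2.72e-06) and the outer membrane protein Syne3 rose (0.51 ± 0.12, SE, limma adjusted p = 0.00461). In the set of libraries that holds STIM1+/D84G replicate 1, the log2 ratio of the Syne3 means was 0.14, against 0.68 in the other set. Sun1 (0.00), Syne1 (−0.01 and 0.16 in a pair of entries that share the name), Syne2 (−0.14) and Syne4 (−0.35) did not pass. These values are of RNA. On blots of nuclear extracts of GST muscle from male mice, the paper reports LMNB1 and SUN2 protein as unchanged. It reports more lamin A there and no difference in lamin C. In stained fibers of another muscle it describes LMNB1 as missing from some mutant nuclei and SUN2 as reduced in some misshapen ones.

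Known partners of the INM genes were then counted. Of 17 partners, 2 rose and 12 fell, beside 25.0% and 24.4% of all genes, with a median log2 fold change of −0.19. The falls depended on the scaling: over the partner and all other context lists together, 20 entries were lower as reported and 4 when libraries were scaled to their totals. Both that rose are lipins, the lipid phosphatases that Ctdnep1 acts on: Lpin3 went from 159 ± 3.68 to 395 ± 24.7 and Lpin2 from 91.6 ± 9.53 to 197 ± 17.8 (SD, n = 4 each, log2 fold changes 1.31 ± 0.07 and 1.10 ± 0.10, SE, limma adjusted p = 1.79e-07 and 9.11e-06). Lpin1, the main lipin of muscle, fell from 13006 ± 2636 to 6927 ± 1029 (SD, n = 4 each, −0.90 ± 0.14, SE, limma adjusted p = 0.000348). Its WT values followed the number in the column names, with 10966 and 10530 in replicates 1 and 2 and 14841 and 15689 in replicates 3 and 4, and all lay above the STIM1+/D84G values of 5580 to 7927. The sterol reductase Tm7sf2, whose enzyme activity overlaps with that of Lbr, fell by 0.42 on the log2 scale (limma adjusted p = 0.00960). Hdac3, a histone deacetylase that emerin and LAP2β bind, fell by 0.34 (limma adjusted p = 0.000232).

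**Figure D4:**
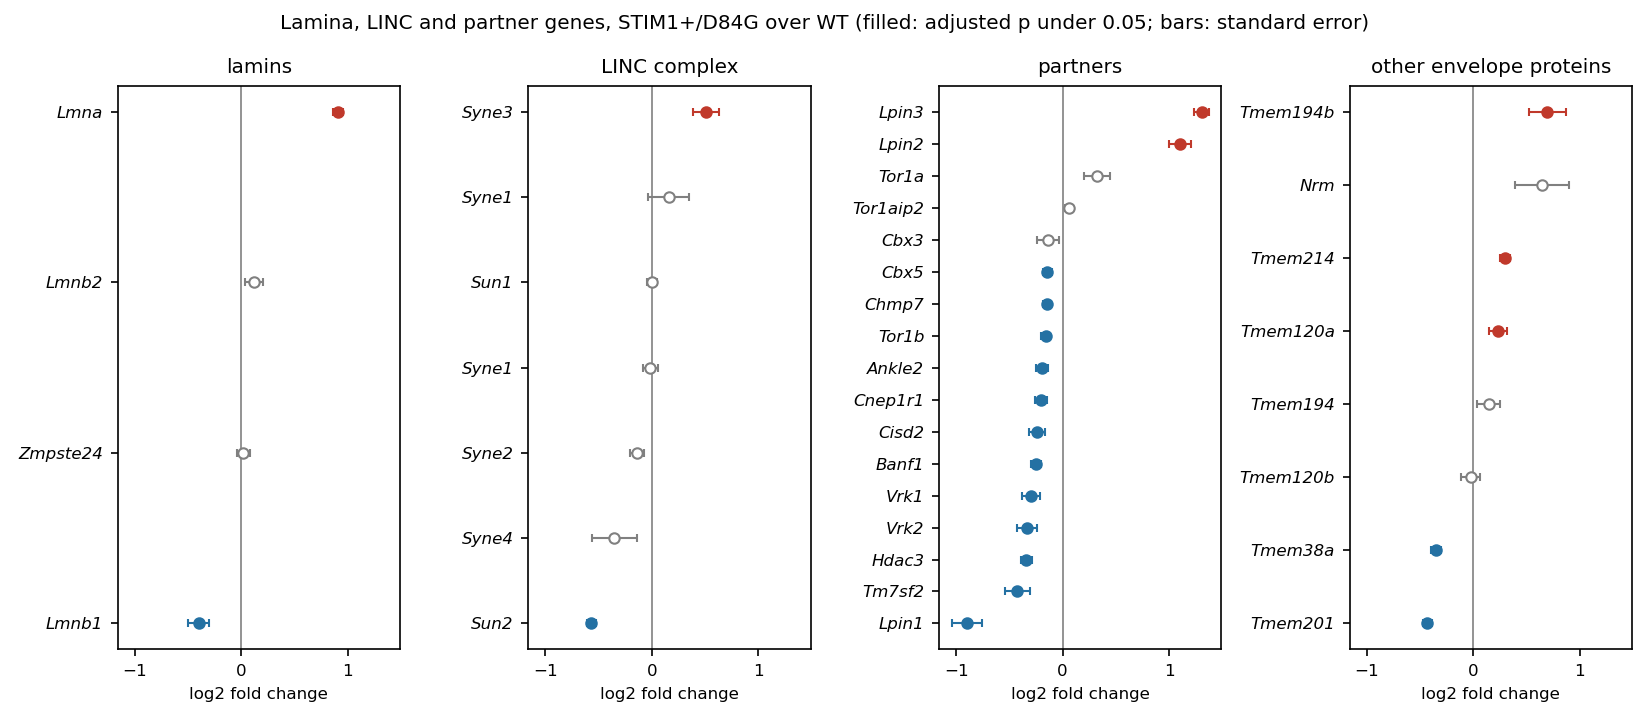
Log2 fold changes, STIM1+/D84G over WT with SE bars, of lamins, LINC complex genes, partners of the INM genes and other NE proteins; filled points passed at an adjusted p under 0.05 and open points did not. Lmna (0.91), Lpin3 (1.31) and Lpin2 (1.10) lie far right and Lpin1 (−0.90) and Sun2 (−0.57) far left under the scaling of the authors.

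Of 9 other NE transmembrane proteins, 8 were listed, of which 3 rose and 2 fell (median log2 fold change 0.19), shares near the 25.0% and 24.4% of all genes. Tmem194b (Nemp2, 0.70, limma adjusted p = 0.00675), Tmem214 (0.30, limma adjusted p = 0.000472) and Tmem120a (0.23, limma adjusted p = 0.0327) rose. Tmem38a, which encodes the K+ channel TRIC-A of the sarcoplasmic reticulum and NE, fell from 37552 ± 1516 to 29460 ± 1228 (SD, n = 4 each, −0.35 ± 0.05, SE, limma adjusted p = 0.000154). Tmem201, which encodes SAMP1, an INM protein linked to the LINC complex, fell from 2227 ± 57.2 to 1650 ± 72.6 (SD, n = 4 each, −0.43 ± 0.04, SE, limma adjusted p = 1.33e-05).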

How the data were processed

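The deposited table lists 15433 genes for 4 WT and 4 STIM1+/D84G libraries. The signal (normalized counts) was deposited as reads of a gene over a size factor of its library, without scaling by length, although the name of the table refers to RPKM. On division by the value of 1 read, 100% of values came out whole within 0.01. Columns with the authors' own ratio, log2 fold change, standard error and statistic (score) and p-value and adjusted p-value of STIM1+/D84G against WT were deposited too and were not used. The build per the labels is mm10. The aligner, counter and strand setting are not given in the sources used here. The kit is Kapa stranded mRNA in the methods but SMARTer in the labels. The titles call the mutant libraries by a strain label, matched to STIM1+/D84G through the title of the series.

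Genes were tested with limma 3.58.1 (lmFit, eBayes with trend, R 4.3.3) on log2 of the value plus 0.1, without a filter on low values, two-sided, with Benjamini-Hochberg adjustment. For low genes a fold change on this scale can differ from the ratio of the group means. The procedure was tested on simulated data. In these, the size factors were known and most genes did not change, so the choice of scaling was not tested there. Exact permutation tests compared log2 group means. Alternatives were pseudocounts of 1 and 0.01, a minimum mean of 10, 4 other scalings, a replicate block, the number in the column names as a term, limma without trend, edgeR 4.0.16 and DESeq2 1.42.0 on the whole reads, and each library left out. Of the 4 other scalings, that by the median of ratios returned the reported values of the INM genes. On the whole reads edgeR called 3953 genes higher and 3608 lower. Python 3.11.15 with pandas 2.3.3 and matplotlib 3.10.9 served for tables and plots. GENCODE vM21 held the identifiers of 15289 genes.

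The labels give both genotypes the same replicate numbers. After group means were removed, same-numbered libraries correlated at 0.213, 0.161, 0.15 and 0.123 (genes whose mean reached 100). Differently numbered libraries reached similar or higher values. WT replicate 2 with STIM1+/D84G replicate 1 gave 0.371, WT replicate 4 with STIM1+/D84G replicate 3 gave 0.222, and WT replicate 3 with STIM1+/D84G replicate 4 gave 0.188. Each of these pairs was alike in the number in its column names. The correlations thus do not show that replicate numbers pair the mice, and the replicate block was used only as an alternative.

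All 10 members, Stim1, the lamins, every LINC complex gene and the 3 largest rises and falls that passed in each longer list of partner or pathway genes are named, with Cnep1r1 and Tor1aip2, except 1 gene that is not reported here. Cell type markers were used as sums and counts per list and are not named. The members and lists were chosen with earlier results of these data known. With 1 library per mouse, p-values measure the spread between mice, and counting error was at most 4.47% of a value for any of the 10 genes.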

Additional observations from a re-analysis of the deposited data

Results flagged for a closer look

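Of 56 sets of 4 libraries examined, 4 had a library set apart from the other 3 by more than Dixon's 95% limit, and chance alone sets apart about 1 in 20. All 4 were WT libraries. Lmna was highest in WT replicate 2, at 2507 normalized counts. The Emd share of the 10 INM genes was highest in WT replicate 1, at 2.74%, and the Tmem43 share in WT replicate 3, at 3.99%. The ratio of Ctdnep1 to Cnep1r1 was lowest in WT replicate 4, at 4.23. The Lmna, Tmem43 and Ctdnep1 values named here still lay on the WT side of every STIM1+/D84G library, whereas that Emd share lay inside the STIM1+/D84G range.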

How the results depend on the processing

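Of 200 values for the 10 INM genes under 20 alternatives, 184 kept their direction and their side of the threshold, 5 changed sign, and of the other 11, 9 lost the call and 2 gained one. The 184 include the values under scaling by the median of ratios, which were the same as those reported and could not differ. Among the sign changes, Lbr lost its call and Emd gained one under scaling to the total (limma adjusted p = 0.0532 and 0.000539). Scaling to the total gave 4 INM genes higher and 2 lower (2 and 6 as reported), 47 and 4 of the partner and context genes (23 and 20 as reported) and 9480 and 761 of all genes (3859 and 3765 as reported). Scaling to all but the 50 most abundant genes gave 9 partner and context genes lower and 2245 of all genes lower, and moved the median of all genes by 0.12. Under these scalings Lbr had log2 fold changes of 0.15 and −0.0745, Emd 0.32 and 0.0894, and Lemd2 0.38 and 0.15, in that order, and under the total Lemd3 had −0.01 (−0.0050), Tmpo −0.0013 and Ppapdc3 −0.0518. Quantile normalization gave Lbr −0.17 (limma adjusted p = 0.0541). With each replicate left out in turn, Lbr ranged from −0.23 to −0.17 (adjusted p 0.0141 to 0.0674), Emd from −0.062 to 0.01 (0.0054 without WT replicate 1) and Lemd2 from −0.01 (−0.0066 without STIM1+/D84G replicate 3) to 0.0605. The replicate block gave 2 INM genes higher and 6 lower, with 3888 and 3778 of all genes, and changed no call of an INM gene. The cause of these shifts was not tested. Total scaling is a single factor per library, so it cannot alter the order of genes within a library. Each genotype had 4 mice, so a difference as small as that of Lbr rests on single libraries.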

Other observations

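Further lists that touch on the roles of the INM genes are given as counts, to be read against the 25.0% of all genes that rose and the 24.4% that fell. Of 9 ER stress genes read beside Wfs1, 6 rose and 1 fell. Hspa5, the main ER chaperone, went from 5133 ± 369 to 12086 ± 295 normalized counts (SD, n = 4 each, log2 fold change 1.24, limma adjusted p = 8.19e-08), Hsp90b1 had a log2 fold change of 0.79 and the stress factor Ddit3 of 0.57. Cisd2, which encodes a partner of wolframin and is the gene mutated in a second form of Wolfram syndrome, passed as lower by 0.24. Its SE was 0.08 (limma adjusted p = 0.0246, exact permutation p = 0.0857). The groups overlapped, with 1205 normalized counts in WT replicate 1 and 1261 in STIM1+/D84G replicate 1. Scaling to the totals raises each gene by nearly 0.35, which is more than this fall.

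Of 14 SMAD factors and targets read beside Lemd3, 4 rose and 4 fell. Among the factors, Smad3 fell from 3642 ± 600 to 1936 ± 113 (SD, n = 4 each, log2 fold change −0.90, limma adjusted p = 2.84e-05), and Smad4 (−0.50) and the inhibitory Smad6 (−0.28) fell too. Among the targets, Id2 (1.16) and Ctgf (0.74) rose. Of the cell cycle list, 9 of 10 genes were listed, 6 rose and the other 3 did not pass. Mki67, a marker of cycling cells, had a log2 fold change of 1.61 ± 0.33 (SE, limma adjusted p = 0.00202), and Ccna2 of 1.57 ± 0.27 (SE). Reads were few, at 19 to 131 per library for Mki67, 7 to 46 for Ccna2 and 5 to 85 for Top2a. In the set that holds STIM1+/D84G replicate 1, log2 ratios of means were 1.11 for Mki67 and 1.47 for Ccna2. They were 2.22 and 1.81 in the other set. Top2a, at 1.57 ± 0.58 (SE, limma adjusted p = 0.0435), had, in the sets given by the number in the column names, log2 ratios of means of 0.23 in the set that holds STIM1+/D84G replicate 1 and 2.55 in the other. The macrophage and fibro-adipogenic markers rose in the same libraries, and their part in these values was not tested.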
